A study of Mus musculus with 12 samples.

Results

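The regions described here lie at 4 imprinted loci of the mouse whose differentially methylated promoter carries DNA methylation on the maternal allele: Igf2r with Airn on chromosome 17, Grb10 and Zrsr1 with Commd1 on chromosome 11, and Plagl1 on chromosome 10. They are all regions of the authors' deposited table of trimethylated lysine 9 of histone H3 (H3K9me3) that overlap fixed intervals of mm10 around these genes, and number 25 of 68291 regions. Igf2r and Airn had 6 regions, Grb10 had 7, Zrsr1 and Commd1 had 7, and Plagl1 had 5. No measured value enters the intervals, but the loci were chosen with earlier results of these data known.

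The study profiled H3K9me3 by chromatin immunoprecipitation and sequencing (ChIP-seq) in Tex19.1-/- embryonic stem cells and in heterozygous Tex19.1+/- cells, both derived from the E14Tg2a line of 129/Ola background, grown in serum with leukaemia inhibitory factor and used at passages 12 to 20. Tex19.1 is a mammal-specific gene active in germ cells and pluripotent cells. Each genotype had 3 immunoprecipitated and 3 input libraries, assigned here by title, because in 6 of the 12 the separate genotype label names the other genotype. The deposited table holds 1 comparison between the genotypes and 0 columns of single libraries, so values per library and the spread between replicates are not analysed here. Nothing in the labels tells whether replicates were grown separately. The nearest region to Tex19.1 lay 28126 bp away, so no value here checks the genotype at the targeted gene. The sources used here do not say which genotype was the reference, so changes are given by sign as deposited. A value sums the maternal and the paternal allele, which cannot be told apart in this table.

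In an imprinted gene the copies inherited from mother and father differ in expression. At the loci described here the promoter is methylated in the oocyte. In embryonic stem cells the KRAB zinc finger protein ZFP57 recognises the methylated copy and, through TRIM28, recruits the H3K9 methyltransferase SETDB1, so that DNA methylation and H3K9me3 mark the same, maternal copy. Airn is a long noncoding RNA transcribed from the paternal allele across the start of Igf2r, which it silences, and Igf2r encodes the receptor that clears insulin-like growth factor 2. Grb10 encodes an adaptor that dampens insulin and growth factor signalling. Zrsr1 is a paternally expressed splicing-factor retrogene inside an intron of Commd1, a gene of copper and NF-kappa-B regulation that runs the other way. Plagl1 encodes a zinc finger transcription factor, and shares its promoter with the noncoding RNA gene Hymai.

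Promoter windows of the members are shown first, because the strongest region of each locus covers at least 1 of them and, at 3 of the 4 loci, leaves another promoter uncovered. They are taken from RefSeq, build GRCm38.p6 (the assembly that mm10 names), run 5′ to 3′ in the direction of transcription from 250 bases before to 50 after the annotated start, and have CpG dinucleotides, the substrate of DNA methylation, in capitals. The first 4 windows lie inside the strongest region of their locus and the last 2 lie outside every region.

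Airn (chr17:12741061-12741360, + strand): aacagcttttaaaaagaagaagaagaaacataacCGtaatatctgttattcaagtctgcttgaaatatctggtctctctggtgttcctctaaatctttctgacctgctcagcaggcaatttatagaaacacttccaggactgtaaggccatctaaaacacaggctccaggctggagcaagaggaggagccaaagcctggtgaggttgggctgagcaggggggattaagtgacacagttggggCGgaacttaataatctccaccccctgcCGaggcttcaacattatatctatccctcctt
Grb10 downstream start (chr11:12027922-12028221, - strand): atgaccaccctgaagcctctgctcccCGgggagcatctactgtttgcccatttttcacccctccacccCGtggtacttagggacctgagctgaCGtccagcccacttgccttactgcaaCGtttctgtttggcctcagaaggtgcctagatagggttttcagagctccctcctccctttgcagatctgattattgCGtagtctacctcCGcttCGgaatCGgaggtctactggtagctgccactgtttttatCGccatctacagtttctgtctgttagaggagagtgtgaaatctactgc
Zrsr1 (chr11:22971755-22972054, + strand): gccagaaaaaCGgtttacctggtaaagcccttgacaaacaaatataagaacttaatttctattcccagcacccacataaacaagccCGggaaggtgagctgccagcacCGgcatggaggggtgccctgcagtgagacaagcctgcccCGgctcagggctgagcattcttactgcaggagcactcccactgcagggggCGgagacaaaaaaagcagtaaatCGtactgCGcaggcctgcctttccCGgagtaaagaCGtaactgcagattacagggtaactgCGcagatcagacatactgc
Plagl1 (chr10:13090582-13090881, + strand): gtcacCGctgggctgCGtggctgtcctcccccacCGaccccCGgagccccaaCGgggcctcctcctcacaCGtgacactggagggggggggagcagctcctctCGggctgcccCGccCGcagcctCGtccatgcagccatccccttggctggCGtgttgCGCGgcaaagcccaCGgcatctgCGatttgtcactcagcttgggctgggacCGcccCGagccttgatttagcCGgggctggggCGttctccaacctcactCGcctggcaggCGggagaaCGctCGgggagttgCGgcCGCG
Igf2r (chr17:12769657-12769956, - strand): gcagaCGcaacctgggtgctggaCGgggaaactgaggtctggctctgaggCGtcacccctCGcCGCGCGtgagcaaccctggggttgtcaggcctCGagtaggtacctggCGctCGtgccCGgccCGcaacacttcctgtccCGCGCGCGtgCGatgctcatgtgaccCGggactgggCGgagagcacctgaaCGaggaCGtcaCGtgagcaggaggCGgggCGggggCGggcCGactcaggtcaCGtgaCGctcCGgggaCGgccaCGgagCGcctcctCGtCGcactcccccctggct
Grb10 upstream start (chr11:12037371-12037670, - strand): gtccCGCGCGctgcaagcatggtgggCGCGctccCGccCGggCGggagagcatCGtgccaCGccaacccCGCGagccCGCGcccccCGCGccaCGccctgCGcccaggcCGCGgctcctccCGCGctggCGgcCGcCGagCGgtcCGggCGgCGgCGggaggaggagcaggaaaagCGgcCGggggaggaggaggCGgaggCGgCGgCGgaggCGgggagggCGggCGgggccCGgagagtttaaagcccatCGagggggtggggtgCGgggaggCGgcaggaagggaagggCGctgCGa

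The 7 genes, Hymai included, had 9 such windows. Of these, 6 overlapped a deposited region, in each case the strongest of its locus, against 2.73% of all 32851 promoter windows in the RefSeq table. The 3 windows outside every region were those of Igf2r, whose start lay 503 bp from the nearest region, of the upstream start of Grb10, at 1870 bp, and of the upstream start of Commd1, at 7621 bp. Within a locus, the covered windows held fewer CpG than the uncovered ones. The window of Airn held 3 and that of Igf2r 34. At Grb10 the downstream window held 9 and the upstream window 45. Zrsr1 held 10 and the downstream window of Commd1 17, against 18 in the upstream window of Commd1. Plagl1, with 26, and Hymai, with 27, have overlapping windows and no uncovered counterpart. The median over all windows was 7. The hexamer TGCCGC, the letters ZFP57 binds when its CpG is methylated, or its reverse complement GCGGCA on the same strand, occurred in 4 of the 9 windows, those of Plagl1 and Hymai, which share the match, and the upstream windows of Grb10 and Commd1. It occurred in 11.6% of all windows. The windows are much shorter than the regions, whose sequence was not analysed here.

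Signal at each locus was concentrated in a single broad region over an annotated start of a member gene. Whether these starts are methylated on the maternal allele in these cells was not tested. The unit is the average CPM of the authors' deposited table, read counts scaled to library size, over the libraries compared. At Igf2r and Airn the strongest region (chromosome 17, 12738793 to 12748864) spanned 10071 bp around the Airn start and had 142 CPM in the authors' deposited table, 69.4% of the summed CPM of the locus. It ranked at percentile 99.4 of all regions by CPM. At Plagl1 the strongest region (chromosome 10, 13087532 to 13093107) spanned 5575 bp over the shared start of Plagl1 and Hymai. It had 128 CPM in the authors' deposited table, 76.4% of its locus, at percentile 99.3. The strongest region of Grb10 (chromosome 11, 12024201 to 12029507) covered the downstream of the annotated starts, with 85.2 CPM in the authors' deposited table, 63.6% of its locus and percentile 98.1. That of Zrsr1 and Commd1 (chromosome 11, 22969909 to 22974663) covered the start of Zrsr1 and the downstream start of Commd1, with 77.2 CPM in the authors' deposited table, 51.4% of its locus and percentile 97.6. Each was 3.37 to 8.28 times as strong as the next region of its locus.

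**Figure D1:**
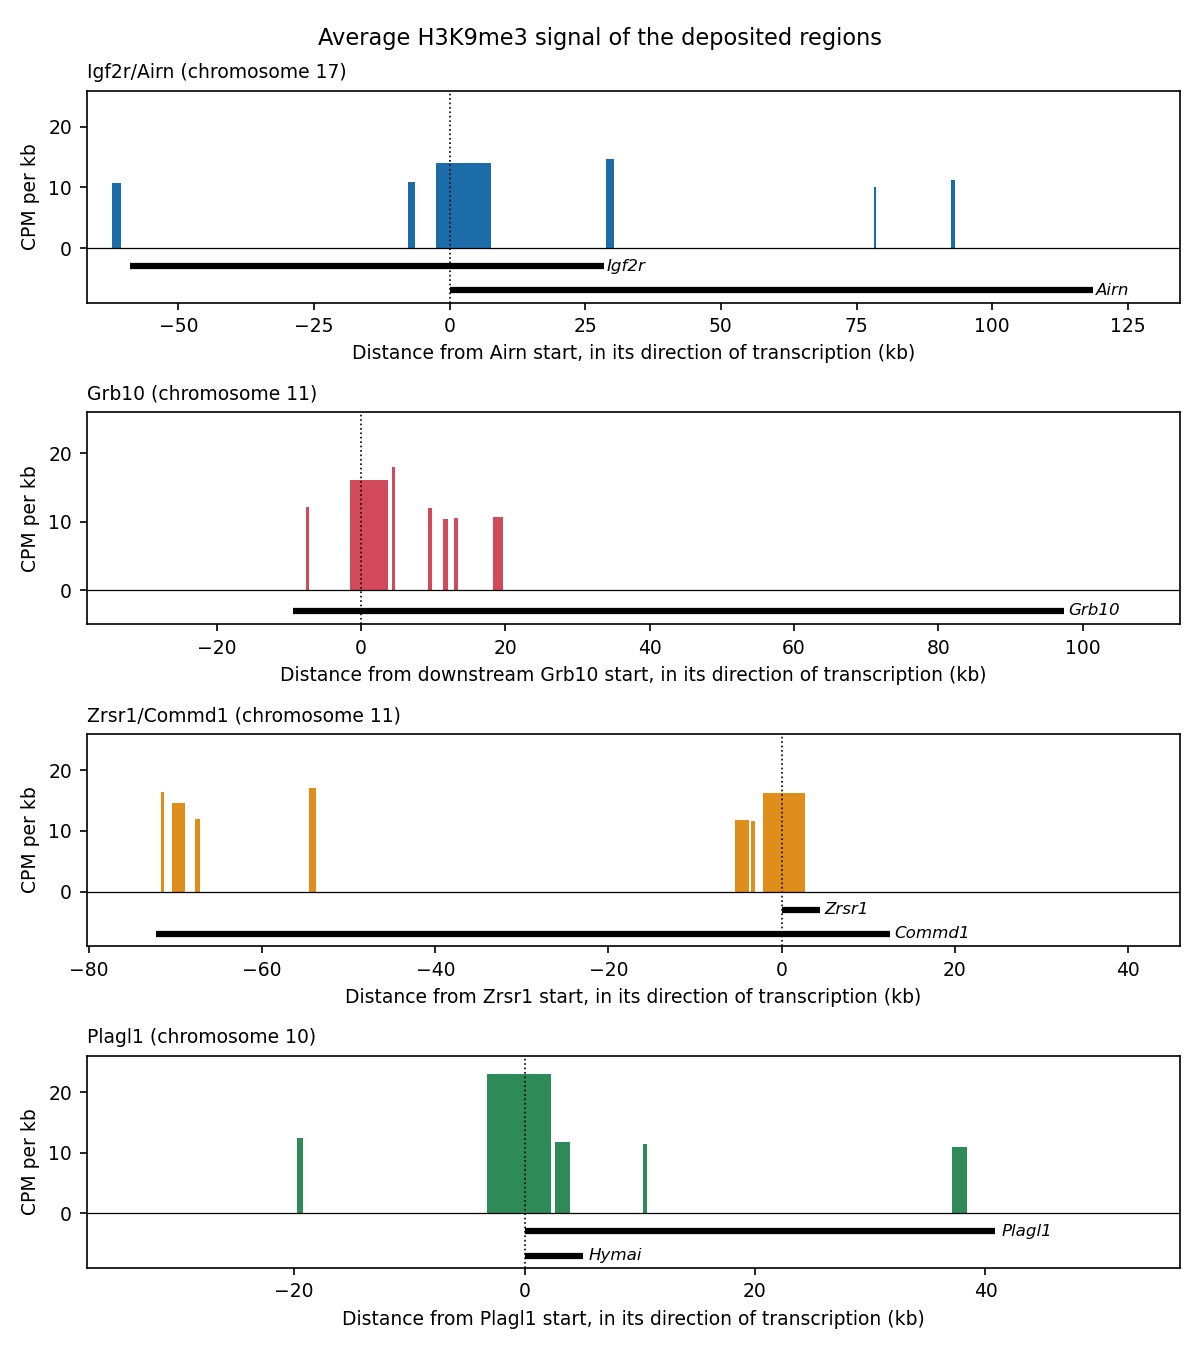
Average H3K9me3 signal (vertical axis, CPM per kb of region) of each deposited region at the 4 loci, against distance in kb from the start of Airn, the downstream start of Grb10, the start of Zrsr1 and the start of Plagl1 (dotted line), with RefSeq gene bodies as black bars. The widest region of each locus covers the start site, and the region at Plagl1 is the densest of the 25, at 23.0 CPM per kb.

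The strongest regions stood less far from the rest per kb than by CPM, since they were wide. Per kb of region, the strongest regions had 14.1 CPM at Igf2r and Airn, 16.1 at Grb10, 16.2 at Zrsr1 and 23.0 at Plagl1, beside a median of 11.3 over all regions and 16.5 over the 2331 regions of 64 CPM or more. The region at Plagl1 stood at percentile 99.3 by density and that at Igf2r and Airn at 82.5. Plagl1 had the strongest region by CPM within 1 Mb on either side, while the strongest regions of Grb10 and of Zrsr1 ranked 3 and that of Igf2r and Airn ranked 4 in such a stretch. The other 21 regions of the 4 loci were 313 to 1605 bp wide and each held at most 15.3% of its locus's CPM. Of them, 17 lay below 16 CPM. In all, 23 of the 25 regions overlapped the body of a member gene. The part of Airn beyond Igf2r held 3 regions. The one beside the Igf2r start (chromosome 17, 12770209 to 12771545) had 19.7 CPM in the authors' deposited table and was the second strongest of the locus. Farther along Airn, the authors' deposited table had 3.14 CPM (12819506 to 12819819) and 9.74 CPM (12833643 to 12834511).

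None of the 25 regions was called between Tex19.1-/- and Tex19.1+/- cells at an FDR below 0.05 in the authors' deposited table, where 0.281% of all regions were called. At so low a background the count of 0 is no result about these loci. On chromosome 11 the share called was 1.09%, and none of its 14 regions described here was among them. An unadjusted p below 0.05 was found at 2 regions, the strongest of Plagl1 and of Zrsr1, both negative. Over the whole table, 4.74% of regions had such a p and 2.05% had it with a negative change. Both regions are strong, and strong regions reached such a p more often. Of the 2331 regions of 64 CPM or more, 611 had it in either direction. On chromosome 11 it was 101 of 148 such regions, and on chromosome 10 it was 15 of 143. These counts take both directions together and do not give the share with a negative change. At any p, 7 of the 148 on chromosome 11 and 102 of the 143 on chromosome 10 were negative. The errors given are derived from the deposited p-values, or from regions of like CPM where the p was too high for that, and inherit every assumption of the authors' test. Whether they cover variation between cultures was not tested.

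The authors' deposited table gave the strongest region of Plagl1 a log2 fold change of -0.24 (p = 0.00307, FDR 0.358), and its derived standard error was 0.08. For Zrsr1 and Commd1 the authors' deposited table gave -0.29 (p = 0.00803, FDR 0.576), with an error of 0.11. Both were smaller than the changes called at like signal. The smallest called change among regions within 0.25 log2 CPM was 0.30 at the signal of Plagl1 and 0.38 at that of Zrsr1. At Igf2r and Airn the authors' deposited table put the strongest region at -0.02, and the 95% interval ran from -0.18 to 0.14. It put that of Grb10 at -0.01, with the interval reaching from -0.22 to 0.19 (derived here from the authors' deposited table). As ratios, these intervals run from 0.88 to 1.10 at Igf2r and Airn and from 0.86 to 1.14 at Grb10.

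All 4 strongest regions were therefore negative as deposited, but strong regions were mostly negative in the table as a whole. Of the 2331 regions of 64 CPM or more, 70.7% were negative, with a median of -0.08. Chromosome 11 differed. Its median over 3218 regions was 0.28, and 4.73% of its 148 regions of 64 CPM or more, or 7 regions, were negative. The strongest regions of Grb10 and of Zrsr1 were both among these 7, and that of Zrsr1 was the lowest of the 148. On chromosome 17, 80.2% of 126 such regions were negative, and on chromosome 10, 71.3% of 143.

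**Figure D2:**
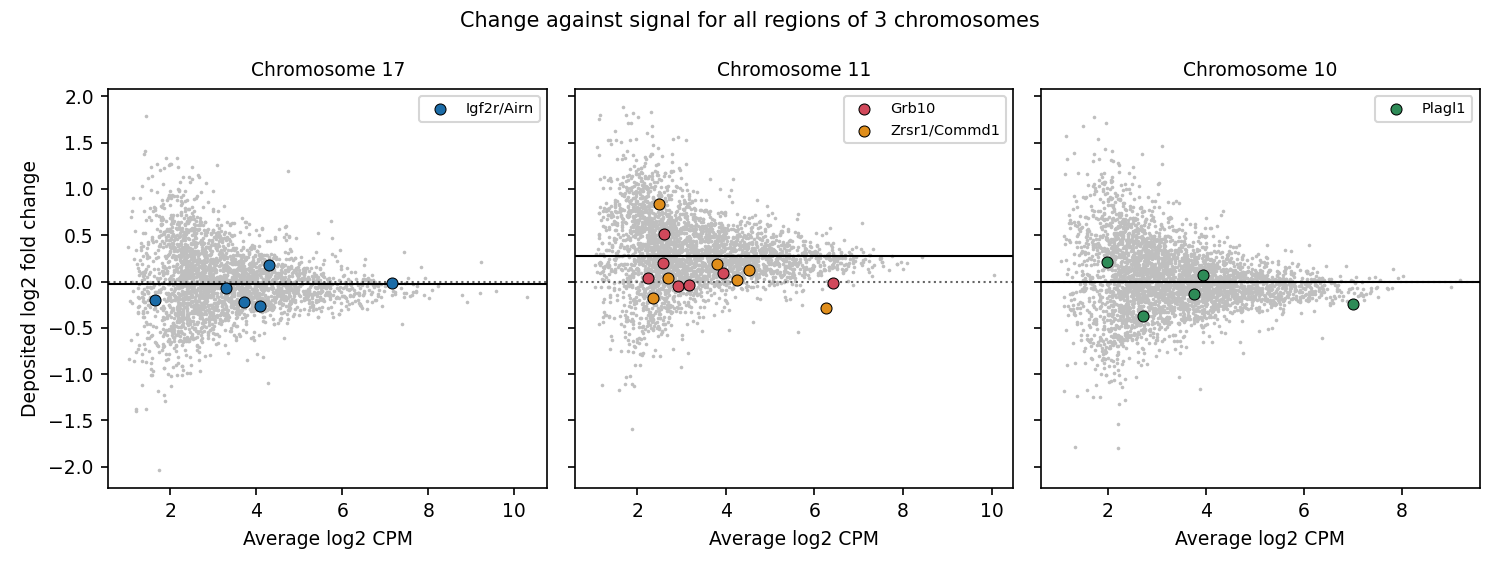
Deposited log2 fold change (vertical axis) against average log2 CPM (horizontal axis) for every region of chromosomes 17, 11 and 10 (grey), with regions of the 4 loci in colour, the chromosome median as a black line and 0 as a dotted line. The strongest region of Zrsr1 and Commd1, at -0.29, lies under the band of chromosome 11 regions of like signal, whose median is 0.24.

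The weaker members did not separate from 0. Igf2r and Airn had further regions of at least 16 CPM beside the Igf2r start (chromosome 17, 12770209 to 12771545), at 0.18 with a derived standard error of 0.23, and past the end of Igf2r (12679127 to 12680693), at -0.27 with 0.24, in the authors' deposited table. In Commd1 the regions at 22901580 to 22903140 and 22966589 to 22968194 of chromosome 11 had 0.13 and 0.02 in the authors' deposited table, with derived standard errors of 0.21 and 0.23. Over the 21 members other than the strongest, log2 fold changes ran from -0.37 to 0.84 in the authors' deposited table, 12 positive and 9 negative, with derived standard errors of 0.21 to 0.72 and an FDR of 1 for each. The median of a locus was -0.14 at Igf2r and Airn, 0.04 at Grb10, 0.04 at Zrsr1 and Commd1 and -0.13 at Plagl1, beside -0.01 over all regions.

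**Figure D3:**
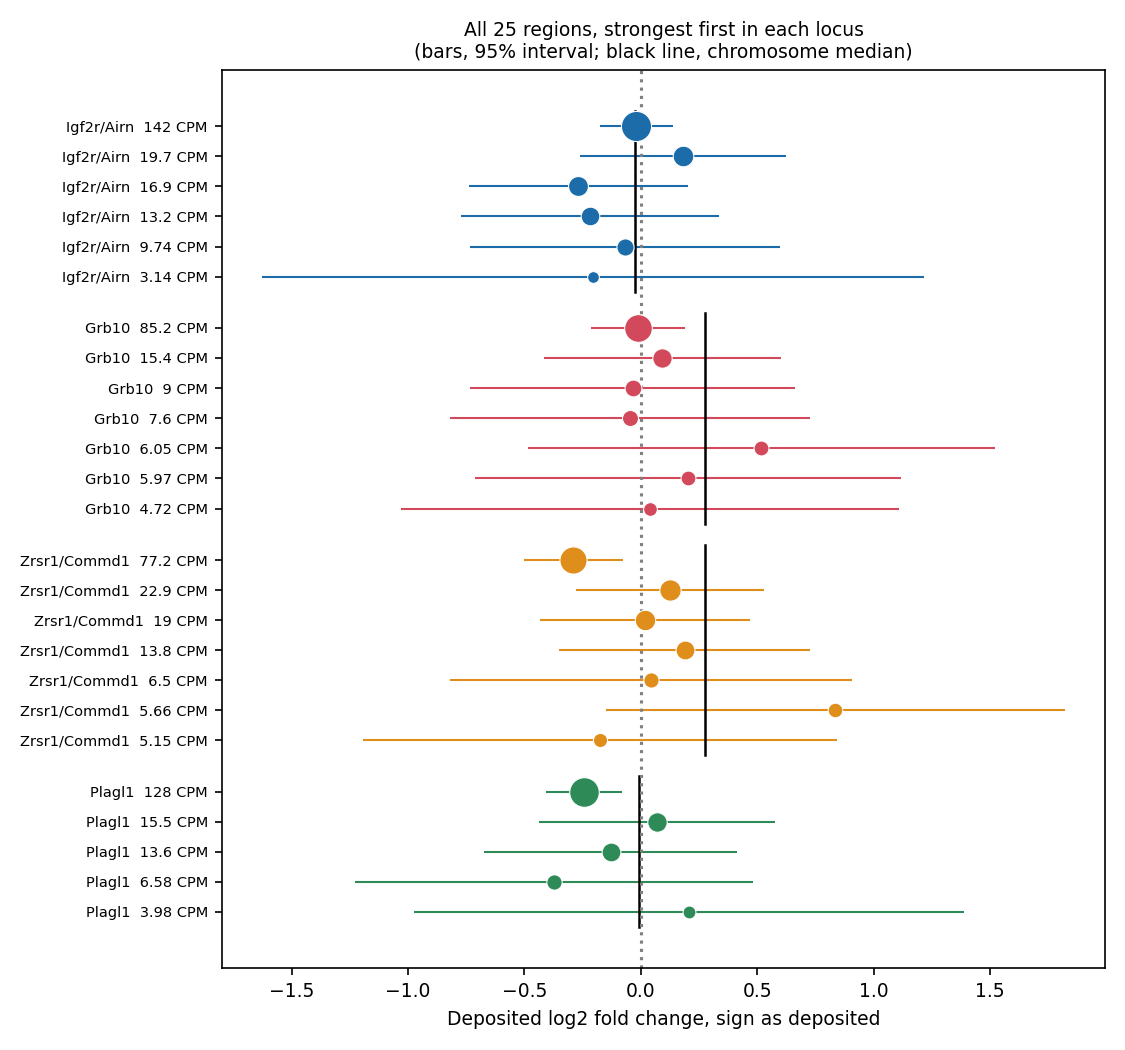
Deposited log2 fold change (horizontal axis) of all 25 regions with its derived 95% interval (bars), ordered by CPM within each locus, with larger points for higher CPM and the median of the locus's chromosome as a black line. The intervals of the strongest regions of Zrsr1 and Plagl1 lie below 0, those of all other regions include 0, and the strongest regions of both chromosome 11 loci have intervals below that chromosome's median of 0.28.

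Relative to the chromosome 11 median, the strongest region of Zrsr1 and Commd1 was called negative, and it was the only call among the 25 regions on this scale. The median of 0.28 corresponds to a ratio of 1.21 over the whole chromosome. With it subtracted, that region had -0.57 (95% interval -0.78 to -0.35), a ratio of 0.68, with an adjusted p of 0.000434 in a normal approximation computed over all 68291 regions. By this rule 0.157% of all regions were called, 0.0674% in the negative direction, and 0.124% of chromosome 11 regions were called in the negative direction, which makes 4. Among regions of 64 CPM or more, 1.07% were called in the negative direction. That this region lay below its chromosome's median was known when the loci were chosen, so the test gives the size of the difference and no independent support. The strongest region of Grb10 had -0.29 on the same scale (interval -0.49 to -0.09), a ratio of 0.82, with an adjusted p of 0.789, and was not called. Plagl1 had -0.24 relative to chromosome 10 (interval -0.40 to -0.08, adjusted p = 0.728), and -0.15 relative to chromosome 10 regions of like signal (adjusted p = 1). For Igf2r and Airn the value was 0.00 relative to chromosome 17 (interval -0.15 to 0.16, adjusted p = 1). Of the 14 regions of both chromosome 11 loci, 12 lay below the chromosome median, as 1609 of all 3218 chromosome 11 regions do by definition. Except for the strongest of each locus, the intervals of the 14 included that median. In the table these 14 were 9 positive and 5 negative. The chromosome-wide shift of chromosome 11 is itself a measurement between these cells, and its part in the result at Zrsr1 was not tested.

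Set against regions of their own chromosome within 0.5 log2 CPM, the loci took different positions. None of the 137 regions like that of Zrsr1 had a lower value. Of the 125 like that of Grb10, 5 were lower, or 4.0%. Of the 53 on chromosome 10 like that of Plagl1, 2 were lower, or 3.77%, and of the 39 on chromosome 17 like that of Igf2r and Airn, 30 were lower, or 76.9%. The strongest region of Igf2r and Airn therefore lay in the upper part of its peers, although its value was close to 0. It was 0.08 above their median of -0.10, with a derived standard error of 0.08, and so did not separate from that median.

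Most regions around the Zrsr1 locus were positive, as on chromosome 11 as a whole, where 2693 of 3218 regions were. Of the 876 chromosome 11 regions of at least 16 CPM, 7.42% were negative. Within 1 Mb on either side, outside the locus, 63 of 74 regions were positive and 4, all under 16 CPM, lay below the strongest region of Zrsr1 and Commd1. The 25 regions of at least 16 CPM ran from 0.05 to 0.50 with a median of 0.32, and all 25 were positive and above the region at Zrsr1. The nearest regions outside the locus interval, at 61347 and 46255 bp, had 0.32 and 0.18 in the authors' deposited table. Around Grb10 the median of 26 such regions was 0.21. Of these, 24 were positive and 2 lay below the Grb10 region. The nearest region past the interval on the upstream side of Grb10, 49827 bp away, had -0.04 in the authors' deposited table. The nearest on the other side, 91270 bp away, lay in Ddc, the dopa decarboxylase gene, an imprinted neighbour of Grb10. That region (chromosome 11, 11824487 to 11828730) had 77.1 CPM and was called at 0.42 (FDR 0.0356) in the authors' deposited table, or 0.14 relative to the chromosome (adjusted p = 1). The Grb10 region minus the Ddc region came to -0.43 (95% interval -0.73 to -0.14), a pair chosen after its values were seen. Around Plagl1, the flanking regions lay 11065 and 20181 bp outside the interval. They had -0.28 and -0.33 in the authors' deposited table, with derived standard errors of 0.22 and 0.39. The regions flanking Igf2r and Airn, 52682 and 17466 bp outside, were weak in the authors' deposited table, at 4.69 and 4.24 CPM, with changes of -0.49 and -0.64 and FDR values of 1.

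**Figure D4:**
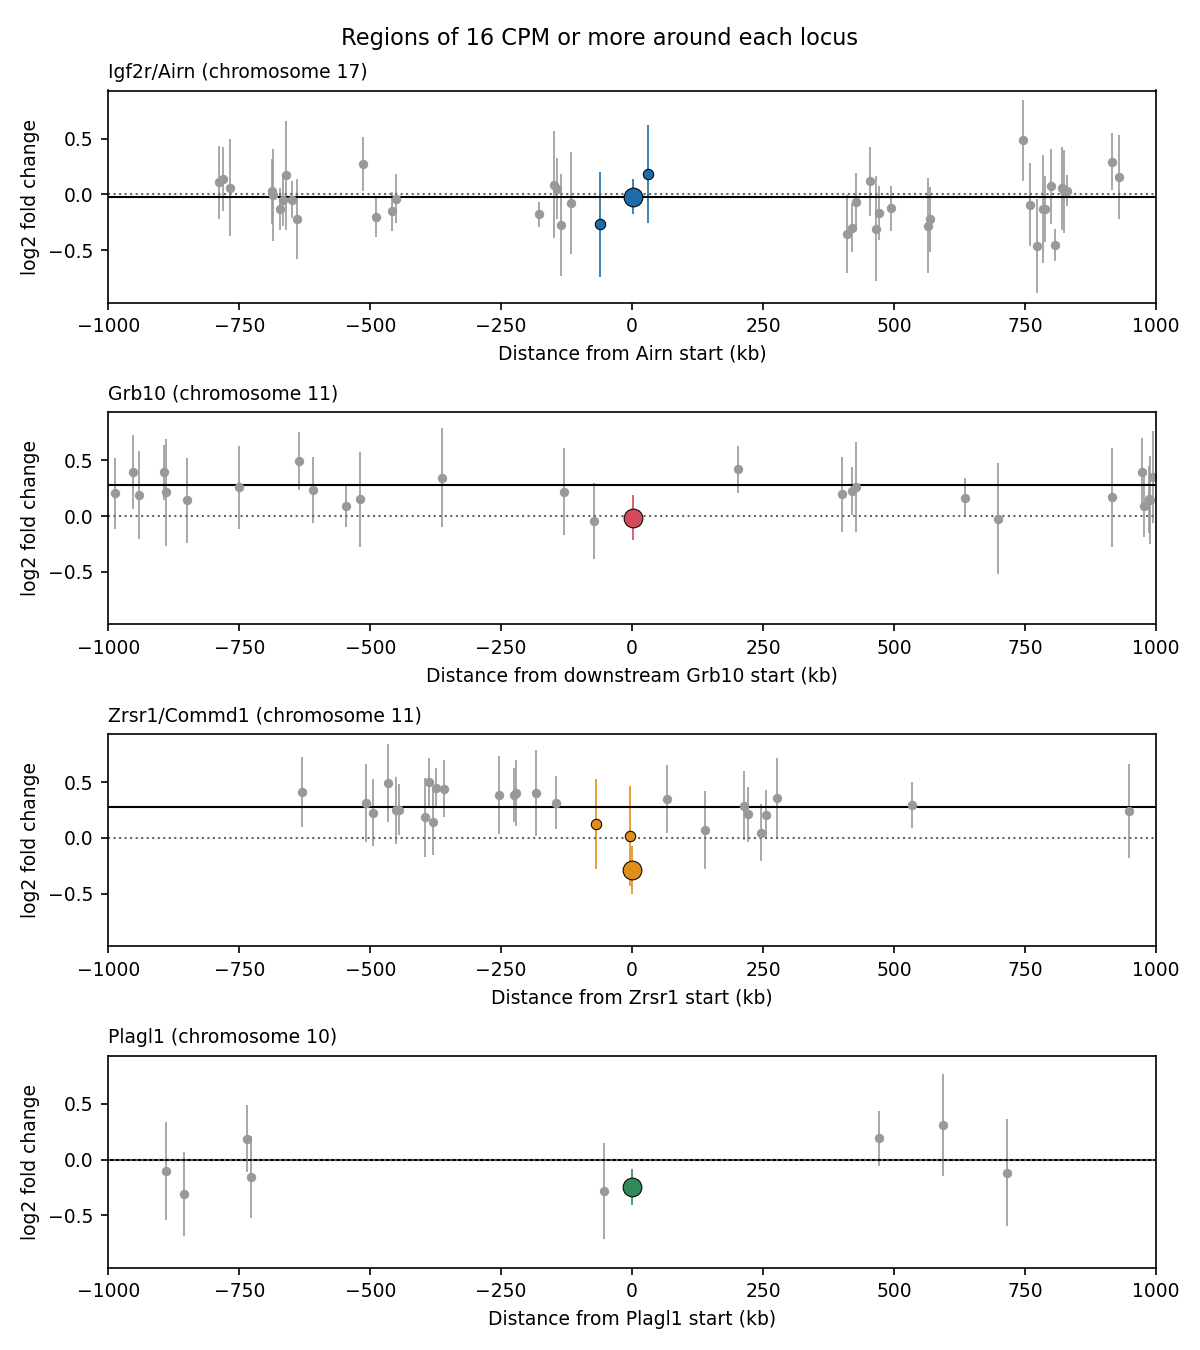
Deposited log2 fold change (vertical axis) with derived 95% intervals of regions of at least 16 CPM within 1000 kb of the start named under each panel (horizontal axis, distance in kb). Coloured points are regions of the locus, the largest being its strongest, grey points are neighbours, the black line is the chromosome median and the dotted line 0. The strongest region of Zrsr1 and Commd1, at -0.29, lies below the neighbours shown, which start at 0.05.

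Differences between the loci were compared over their 6 pairs, as intervals from the derived errors with no adjustment and no p. As deposited, the interval left out 0 for 1 pair, Zrsr1 minus Igf2r and Airn, at -0.27 (-0.53 to -0.003), and the other intervals included 0. Relative to each chromosome, the interval left out 0 for 4 pairs. Zrsr1 minus Igf2r and Airn came to -0.57 (-0.83 to -0.30), Grb10 minus Igf2r and Airn to -0.29 (-0.55 to -0.04), Plagl1 minus Igf2r and Airn to -0.24 (-0.47 to -0.01) and Plagl1 minus Zrsr1 to 0.33 (0.06 to 0.60). Zrsr1 minus Grb10, which share a chromosome and so need no correction, came to -0.28 with an interval of -0.57 to 0.02.

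Other imprinted genes were read beside these loci from lists of known genes. The lists were chosen with earlier results of these data known, so their counts are descriptions and no independent support. Of 77 regions in or within 5 kb of 23 other genes at loci methylated on the maternal allele, 5 were called, all negative, against 0.0893% of all regions, and the list's median was -0.09. All 8 of that list's regions of 64 CPM or more were negative, against 70.7% of all such regions, and 7 of the 8 were negative relative to their chromosome. The called regions lay at Impact, H13 with Mcts2 (neighbouring regions), Mest and Gnas. In the authors' deposited table Impact had -3.95 at 16.9 CPM, and H13 with Mcts2 had -2.39 at 9.24 CPM and -2.71 at 20.6 CPM. Gnas had -0.29 at 205 CPM in the authors' deposited table. The region of Mest, a paternally expressed hydrolase gene, had a signal close to that of Igf2r and Airn, 139 CPM, and a change of -0.90 per the authors' deposited table. That is the lowest value of all 2331 regions of 64 CPM or more, and Mest is named here with its value known. The region of highest signal in that list, over Nnat and Blcap, was at -0.04 (FDR 1) per the authors' deposited table. Genes methylated on the paternal allele had 20 regions and 0 calls, against 0.281% of all regions, and 4 with an unadjusted p below 0.05, against 4.74%. Changes of these 20 regions ran from -0.998 to 1.17 in the authors' deposited table, 12 positive and 8 negative, with a lowest FDR of 0.0705. Their median was 0.08, and their strongest region, at H19, had 0.08 in the authors' deposited table. Of 20 genes of imprint maintenance, such as Zfp57 and Trim28, 7 had a region. Their 16 regions held 0 calls and 0 unadjusted p-values below 0.05, against the same shares of all regions, and a median of 0.06, and the strongest, at the KRAB zinc finger gene Zfp445, had 0.10 in the authors' deposited table. Of 12 genes neighbouring the members in their clusters, 7 had a region, and of their 20 regions 1 was called, the positive one at Ddc, against 0.192% of all regions called in the positive direction.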

How the data were processed

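Per the submitters' processing notes, the build was mm10 and the tools were edgeR (version not given), bedtools 2.25.0, HOMER 4.8 and Bowtie2 2.2.6, listed without their roles. The table deposited by the authors has, per the file headers, 4 measures for each of 68291 regions, namely FDR, p-value, log2 fold change and mean log2 CPM. How regions were defined, which libraries entered, the use of input and the reference genotype are not stated in those sources. Depth per library is not analysed here. Adjusting the deposited p-values anew by Benjamini-Hochberg gave the deposited FDR to within 3.2e-05. CPM summed over the table to 1081650, so values are close to shares of reads inside the listed regions, and a shift shared by every region could not be seen.

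Because no value per library is held, the planned edgeR test across libraries was not run and the authors' FDR was read as it stands. Standard errors are the absolute log2 fold change over the normal deviate of the deposited p where that deviate was at least 1 (19017 regions), and otherwise the median of such errors within 0.25 log2 CPM. Intervals are 95% normal intervals. For the chromosome-relative test, the median of a region's chromosome was subtracted and the result divided by the error, for every region, with Benjamini-Hochberg adjustment over all of them. It takes the median as known. The calculation was tested on simulated data. These were drawn with the normal errors that it assumes, so they check the computation and not the approximation. Genes were placed with the RefSeq table of GRCm38.p6, and Hymai was counted with Plagl1. Python 3.11.15, numpy 2.4.6, pandas 2.3.3 and scipy 1.17.1 were used. Regions of at least 16 CPM or an unadjusted p below 0.05 are named with coordinates as deposited. From the other lists, called regions and those of highest signal are named. The members and lists were chosen with earlier results of these data known. With 1 comparison there is no pattern over samples, so genes of like pattern were not sought.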

Additional observations from a re-analysis of the deposited data

How the results depend on the processing

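The count of 0 called regions at the 4 loci was the same at an FDR below 0.01, under Holm adjustment, without regions shorter than 1000 bp, without chromosomes X and Y, with intervals widened by 50 kb (34 regions) and for member gene bodies alone (23 regions). The chromosome-relative call at Zrsr1 and Commd1 was kept under each alternative tried, at -0.53 (adjusted p = 0.00157) against chromosome 11 regions of like signal, -0.57 (adjusted p = 0.000442) against regions within 5 Mb and -0.57 (adjusted p = 0.000385) with the error of regions of like signal. No further region of the 4 loci was called in these alternatives. They all reuse the same deposited changes, so the kept call is no independent support. The value at Igf2r and Airn, 0.002 relative to the chromosome, was -0.016 against regions within 5 Mb, a change of sign around 0 (adjusted p = 1 in both), of which the cause was not tested. Plagl1 was at -0.15 against like signal. The call at Ddc, the 1 call among cluster neighbours, was lost at an FDR below 0.01, which leaves 0. The alternatives for relative calls at the loci as a count and for lists were chosen after seeing the data. No paired analysis was possible because the table holds no value per library, and for the same reason the omission of single libraries and another normalization were not run. Among regions within 0.25 log2 CPM of the strongest ones, the smallest called changes were 0.30 to 0.38, which is a description and not a detection limit, and depth per library is not analysed here.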
